A study of Mus musculus with 6 samples.

Results

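The CDK inhibitors of the Kip and Ink4 families were followed through RNA-seq of molar dental pulp, by taking every row of the gene count table whose symbol was *Cdkn1b*, *Cdkn1c*, *Cdkn2a*, *Cdkn2b*, *Cdkn2c* or *Cdkn2d*. All 6 genes were found among the 27506 genes listed. The pulp came from mandibular first molars of C57BL/6 mice at P3.5, that is 3.5 days after birth. The 3 control samples were labelled *Ror2 fl/fl*, with floxed *Ror2* alleles and no Cre named. The 3 mutant samples were *Osr2-Cre;Ror2 fl/fl*, which carry the same floxed alleles together with a Cre recombinase driven by *Osr2*. According to the study, this Cre acts in mesenchyme of the tooth and in alveolar bone, whereas the epithelium of the tooth is spared. *Ror2* encodes a receptor for non-canonical Wnt ligands, and the comparison asked which transcripts differed in the pulp once it was deleted there. Whether a sample was pooled from several mice is not given in the sources used here.

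Cyclin-dependent kinases drive a cell from G1 into S phase once they bind a cyclin, and CDK inhibitors hold them back. Kip proteins, p27Kip1 (*Cdkn1b*) and p57Kip2 (*Cdkn1c*), bind the assembled cyclin-CDK complex, mainly those with CDK2, while Ink4 proteins (p15, p16, p18 and p19, from *Cdkn2b*, *Cdkn2a*, *Cdkn2c* and *Cdkn2d*) bind free CDK4 and CDK6 and keep D cyclins away. In developing tissues, the Kip proteins, p18 and p19 accompany the exit of precursors from the cycle, whereas p16 and p15 are best known as inhibitors in aging and stressed cells, and much of the control of p27 takes place by degradation of the protein, which RNA-seq does not measure.

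The libraries held between 56134770 and 62628940 estimated counts. Of all genes, 19330 passed the filter on low counts and were tested. *Ror2* itself was at 38.2, 36.2 and 36.7 CPM (counts scaled to library size by the TMM method) in control libraries 1 to 3 and at 27.9, 28.1 and 26.3 CPM in mutant libraries 1 to 3. Every mutant library was below every control library (log2 fold change -0.43, SE 0.08, adjusted p = 0.013, edgeR's quasi-likelihood test, p-values adjusted by Benjamini-Hochberg over all genes tested). All markers of dental mesenchyme were detected, but so were those of the enamel epithelium: *Amelx* alone took 9.15% to 9.97% of the control and 12.6% to 15.1% of the mutant counts. Skeletal muscle markers summed to 10.4 to 36.0 CPM in control against 2.61 to 3.53 CPM in mutant libraries, and all 6 of the 7 markers that could be tested were lower in the mutant. Of 5 erythroid markers, 2 were lower, and of 5 Schwann cell markers, 2 were higher. Of 9 dental mesenchyme markers, 2 were higher, *Msx2* and *Dlx2* (log2 fold change 0.38 and 0.51, adjusted p = 0.042 and 0.012, edgeR). Of 5 bone markers, only *Sost* passed the test, and it was lower (-2.72, adjusted p = 0.0014, edgeR). No marker of odontoblasts, dental epithelium, endothelium, macrophages and leukocytes, or smooth muscle and pericytes passed the test. The odontoblast markers were uneven as a sum within both groups. They summed to 14530, 46240 and 32670 CPM in control libraries 1 to 3 and to 35500, 12840 and 17770 CPM in mutant libraries 1 to 3. *Col1a1* made up most of each sum, and *Dspp*, *Phex* and *Nes* ranked the libraries of a group in the same order. In control libraries 1 to 3 *Dmp1* (64.81, 61.05 and 61.15 CPM) and *Ibsp* (71.18, 58.86 and 73.64 CPM) varied less. No marker was at 0 throughout. In bulk tissue, fewer cells of a type and less RNA per cell cannot be told apart.

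In mm10 with GENCODE M21 models, the Kip genes lay on separate chromosomes, *Cdkn1b* at chr6:134920401-134925513 on the plus strand and *Cdkn1c* at chr7:143458339-143461050 on the minus strand, inside the imprinted *Kcnq1ot1* domain. *Cdkn2a* (chr4:89274471-89294653) and *Cdkn2b* (chr4:89306299-89311039) were neighbours on the minus strand of chromosome 4. *Cdkn2c* (chr4:109660876-109667189, minus strand) lay farther along that chromosome, and *Cdkn2d* (chr9:21288410-21291407, minus strand) on chromosome 9. Counts were made over exons, whose union ran from 1172 bases in *Cdkn2a* to 4552 bases in *Cdkn1b*. The exons of *Cdkn1b* were 43.9% G or C and those of the other members 53.9% to 59.8%. In the M21 transcripts, 5 of the members shared no exact stretch of 75 bases, the read length, with another gene, and their exons overlapped those of no other gene.

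To set the sequence where each transcript starts beside its level, promoter windows from RefSeq (GRCm38.p6, the build named mm10) were searched on both strands. A window ran from 250 bases before to 50 bases after a start site, and 5 motifs were sought. The E2F motif was spelled TTTNNCGC. The FOXO motif was spelled GTAAACA. The GC box was spelled GGGCGG. The CCAAT box was spelled as named, and the TATA box was spelled TATAAA. The sequences below stop where an annotated UTR begins, and capitals mark the matches. The first belongs to *Cdkn1b*, the highest member per length after *Cdkn1c*, from chr6:134920151-134920400 on the plus strand. The second belongs to the downstream start of *Cdkn2c*, a member that fell, from chr4:109665373-109665609 on the minus strand. The last pair belongs to *Cdkn2a*, almost silent here, whose upstream start (chr4:89294654-89294869, minus strand) makes the Arf transcript and whose downstream start (chr4:89282193-89282442, minus strand) makes the p16Ink4a transcript.
Cdkn1b: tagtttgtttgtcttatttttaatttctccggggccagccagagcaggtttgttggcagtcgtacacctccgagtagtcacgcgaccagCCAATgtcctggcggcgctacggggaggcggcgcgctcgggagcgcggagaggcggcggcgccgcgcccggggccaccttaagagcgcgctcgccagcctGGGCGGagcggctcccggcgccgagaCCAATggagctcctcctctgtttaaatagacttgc
Cdkn2c, downstream start: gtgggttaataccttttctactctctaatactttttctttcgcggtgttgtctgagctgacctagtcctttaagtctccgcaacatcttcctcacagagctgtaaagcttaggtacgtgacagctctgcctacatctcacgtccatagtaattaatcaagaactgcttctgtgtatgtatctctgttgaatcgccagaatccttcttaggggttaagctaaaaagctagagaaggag
Cdkn2a, upstream start: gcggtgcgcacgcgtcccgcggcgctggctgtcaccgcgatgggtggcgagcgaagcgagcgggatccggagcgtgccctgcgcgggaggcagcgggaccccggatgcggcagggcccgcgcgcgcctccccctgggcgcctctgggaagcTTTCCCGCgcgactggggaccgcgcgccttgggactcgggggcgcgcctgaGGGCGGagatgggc
Cdkn2a, downstream start: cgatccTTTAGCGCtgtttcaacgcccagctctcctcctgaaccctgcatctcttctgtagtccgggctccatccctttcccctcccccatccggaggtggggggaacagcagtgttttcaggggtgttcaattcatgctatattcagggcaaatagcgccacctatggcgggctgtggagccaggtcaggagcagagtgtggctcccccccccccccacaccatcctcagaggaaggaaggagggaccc
The stretch printed for *Cdkn1b* held 2 CCAAT matches and 1 GC box, in a sequence that was 64.4% G or C. That of the downstream start of *Cdkn2c* held none of the letters sought and was 42.6% G or C. The window at the upstream start of *Cdkn2c* lies wholly in an annotated UTR and was therefore not printed. It held 4 GC boxes and no match to the other motifs, and was 73.3% G or C. Each *Cdkn2a* stretch held an E2F match, and the upstream one a GC box as well. The whole windows, which reach into the annotated UTRs, held 3 CCAAT matches for *Cdkn1b*, 1 CCAAT match for the downstream start of *Cdkn2c*, 3 GC boxes for the upstream start of *Cdkn2a*, and 1 GC box and 1 CCAAT match for its downstream start. No capitalized matches overlapped. Among 32851 mouse promoter windows of the same length as these whole windows, 5.17% held the E2F letters, 3.65% the FOXO letters, 35.7% the GC box, 37.4% CCAAT and 13.6% the TATA box. These matches describe letters and not bound sites, and no reference window was used for *Cdkn1c*.

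Among the 5 members that could be tested, *Cdkn1c* and *Cdkn2c* were lower in *Osr2-Cre;Ror2 fl/fl* pulp, and *Cdkn1b*, *Cdkn2b* and *Cdkn2d* did not pass the test. Of all genes tested, 20.2% passed the same threshold, an adjusted p under 0.05 in edgeR's quasi-likelihood test, 9.84% in the lower and 10.4% in the higher direction. No member was higher, with 0 at an unadjusted p under 0.05 and 0 by DESeq2 or limma voom. The control and mutant libraries did not overlap for *Cdkn1c* and *Cdkn2c*, with the mutant lower, a state that 22.1% of all genes tested shared (22.6% with the mutant higher, 44.7% either way). The log2 fold change was below 0 for 2 of the 5 members and for 49.3% of all genes tested. The median log2 fold change of all genes tested was 0.01, and the middle of their distribution ran from -0.31 to 0.33 between quartiles. By p-value, 4.62% of the genes tested ranked ahead of *Cdkn1c* and 18.1% ahead of *Cdkn2c*, against 65.8% for *Cdkn2b*, 92.0% for *Cdkn2d* and 92.5% for *Cdkn1b*. *Cdkn1c* and *Cdkn2c* therefore passed the test among many other genes, and the other members lay nearer the bottom of the list.

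**Figure D1:**
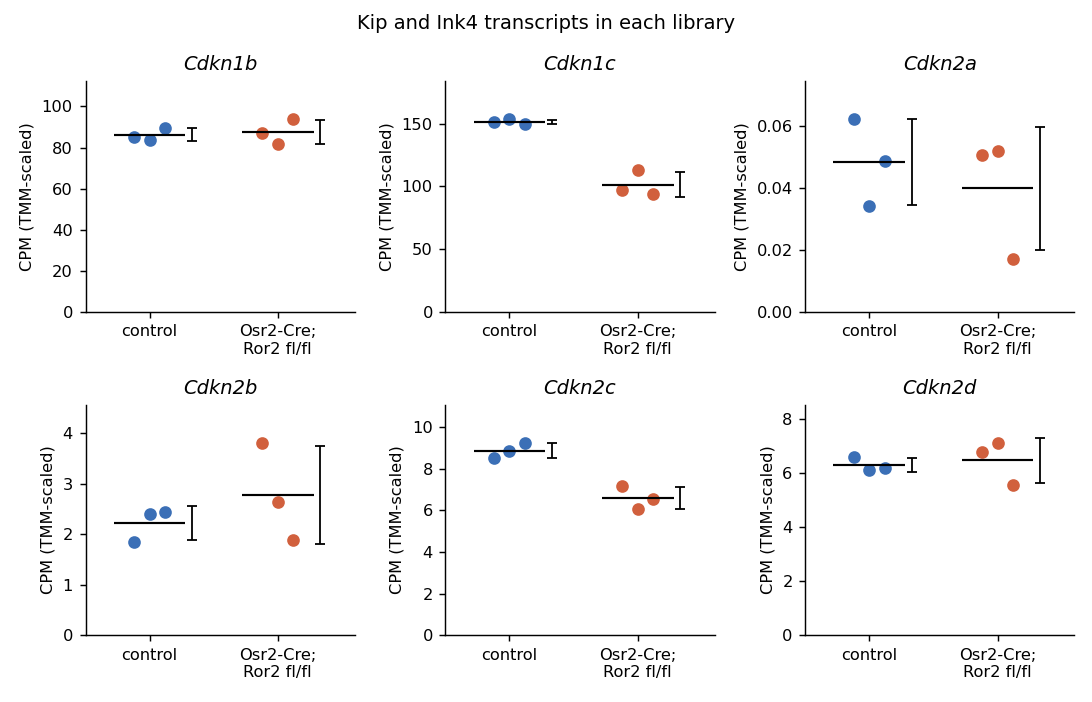
TMM-scaled CPM (y axis, starting at 0, its own scale in each panel) of the 6 inhibitors in 3 *Osr2-Cre;Ror2 fl/fl* (mutant) and 3 control libraries; points are libraries, the horizontal line is the mean and the bar beside it the SD. *Cdkn1c* and *Cdkn2c* show separate groups, *Cdkn1b*, *Cdkn2b* and *Cdkn2d* overlapping ones, and the *Cdkn2a* panel spans 1 to 4 counts.

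*Cdkn1c*, which encodes p57Kip2 and is expressed from the maternal allele, was the most abundant member per length. It was at 152, 154 and 150 CPM in control libraries 1 to 3, from 8948 to 9766 counts. The mutant libraries held 97.5, 113 and 93.7 CPM, from 5528 to 6511 counts. The controls lay close together, every mutant library was below all of them, and mutant library 2 was the nearest. The means were 152 ± 1.68 (SD, n = 3) and 101 ± 10.1 CPM (SD, n = 3), a log2 fold change of -0.58 (SE 0.10, 95% interval -0.82 to -0.34, edgeR's quasi-likelihood test, adjusted p = 0.0098). On the linear scale the mutant fell by 33.2%, with an interval from -43.4% to -21.2%. An exact two-sided permutation test of the 3 against 3 libraries gave p = 0.1, the smallest that this design allows.

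The adjusted p of *Cdkn1c* in the edgeR test was 0.054 without control library 2 and also without control library 3, with log2 fold changes of -0.58 and -0.60, and 0.027 without control library 1. Over 22 alternatives the adjusted p ran from 4.2e-06 to 0.054, and the log2 fold change from -0.88 to -0.53, the former with offsets for GC content and exon length. The sum of the skeletal muscle markers was also lower in every mutant library. In control libraries 1 to 3 that sum was 22.05, 36.03 and 10.36 CPM, where *Cdkn1c* was at 152, 154 and 150 CPM. A part of these markers in the difference of *Cdkn1c* was not tested.

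*Cdkn1c* was also the member with an overlapping gene. *Gm44732*, an antisense gene of unknown role, covers 625 bases of its exons and 479 of its 2171 stretches of 75 bases (22.1%). It was counted 179, 136 and 156 times in control libraries 1 to 3 and 0, 12 and 3 times in mutant libraries 1 to 3. The controls were thus far above the mutants, of which libraries 1 and 3 were at or under the floor of 3 counts. *Gm44732* was lower in the mutant by edgeR's quasi-likelihood test (2.55 ± 0.224 against 0.0863 ± 0.108 CPM, SD, n = 3 each, adjusted p = 0.0032). Whether the counting used the strand is not stated, so reads of the pair cannot be told apart where they overlap. The antisense gene made up 1.497% to 1.80% of the summed counts of the pair in control and at most 0.184% in mutant libraries. With the counts of both summed, the log2 fold change was -0.61 (adjusted p = 0.0086 in the edgeR test, within the range over the alternatives given above).

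*Cdkn1b* encodes p27Kip1, the Kip protein most widely tied to cell cycle exit. It was at 85.3, 83.8 and 89.7 CPM in control libraries 1 to 3 and at 87.3, 81.9 and 93.7 CPM in mutant libraries 1 to 3. The groups overlapped, and a mutant library was both the lowest and the highest of the 6. The means were 86.3 ± 3.06 and 87.6 ± 5.88 CPM (SD, n = 3 each), a log2 fold change of 0.02 (SE 0.09, 95% interval -0.19 to 0.23, adjusted p = 0.88 in edgeR's test). The exact permutation p was 0.7, two-sided. With an offset for GC content the log2 fold change was 0.25 (adjusted p = 0.065 in the edgeR test, the range over 21 alternatives being 0.051 to 0.99), and it turned to -0.01 without control library 2 and to -0.03 without mutant library 3.

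Since p27 and p57 transcripts were counted in the same libraries, their ratio within a library does not depend on the scaling of libraries. The ratio of *Cdkn1c* to *Cdkn1b* counts was 1.78, 1.83 and 1.67 in control libraries 1 to 3. It was 1.12, 1.38 and 1 in mutant libraries 1 to 3. Each mutant ratio was below each control ratio (exact two-sided permutation p = 0.1, the smallest possible), with a mean of 1.76 ± 0.0802 in control and 1.16 ± 0.193 in mutant libraries (SD, n = 3 each). This and the other ratios were chosen after the members' values were seen. Each ratio between members included *Cdkn1c* or *Cdkn2c*, which were lower in every mutant library, and so partly restates that difference.

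Among the Ink4 genes, *Cdkn2c* encodes p18Ink4c, an inhibitor of CDK4 and CDK6. It was at 8.54, 8.85 and 9.23 CPM in control libraries 1 to 3 and at 7.17, 6.08 and 6.56 CPM in mutant libraries 1 to 3, from 351 to 570 counts. All mutant libraries lay below all controls. The means were 8.87 ± 0.346 and 6.60 ± 0.545 CPM (SD, n = 3 each), and the log2 fold change was -0.43 (SE 0.12, 95% interval -0.71 to -0.15, adjusted p = 0.043 in edgeR's quasi-likelihood test). The mutant fell by 25.6%, with an interval from -38.7% to -9.61%, and the exact permutation p was 0.1. The call was close to the threshold. It was lost in 12 of 21 alternatives, among them the omission of each of the 6 libraries in turn (adjusted p from 0.054 without mutant library 1 or 3 to 0.17 without control library 3, edgeR), while the log2 fold change stayed between -0.59 and -0.36. Over all alternatives the adjusted p ran from 0.014 to 0.17.

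*Cdkn2d*, which encodes p19Ink4d, was near *Cdkn2c* in level per length but did not move with it. It was at 6.60, 6.12 and 6.19 CPM in control libraries 1 to 3 and at 6.77, 7.11 and 5.54 CPM in mutant libraries 1 to 3. Mutant library 3 was the lowest and mutant library 2 the highest, so the groups overlapped. The means were 6.30 ± 0.258 and 6.47 ± 0.823 CPM (SD, n = 3 each), with a log2 fold change of 0.04 (SE 0.14, 95% interval -0.29 to 0.36, edgeR, adjusted p = 0.87) that turned to -0.15 with the GC offset. The exact permutation p was 0.9. Within each library, the ratio of *Cdkn2c* to *Cdkn2d* counts was 1.29, 1.45 and 1.49 in the controls and 1.06, 0.856 and 1.18 in the mutants. All mutant ratios were lower (exact permutation p = 0.1).

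*Cdkn2b*, which encodes p15Ink4b and is a known target of TGF-beta signaling, was low. Control libraries 1 to 3 held 1.85, 2.40 and 2.45 CPM and mutant libraries 1 to 3 held 3.81, 2.63 and 1.90 CPM, from 112 to 225 counts. The mutants were the most spread of any tested member, with libraries 1 and 2 above every control and library 3 among them. The means were 2.23 ± 0.333 and 2.78 ± 0.962 CPM (SD, n = 3 each), a log2 fold change of 0.32 (SE 0.27, 95% interval -0.31 to 0.94, edgeR, adjusted p = 0.42; exact permutation p = 0.4). The value followed single libraries, at 0.02 without mutant library 1 and 0.53 without mutant library 3. The ratio of *Cdkn2b* to *Cdkn2c* counts was 0.216, 0.271 and 0.265 in control libraries 1 to 3. It was 0.531, 0.433 and 0.289 in mutant libraries 1 to 3, all above the controls (exact permutation p = 0.1). *Cdkn2c* itself was lower in every mutant library, so this ratio partly restates that difference.

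*Cdkn2a*, whose row adds the p16Ink4a transcript to the Arf transcript read in another frame, was at the limit of detection. It was counted 4, 2 and 3 times in control libraries 1 to 3 and 3, 3 and 1 times in mutant libraries 1 to 3. These counts, at or near the floor of 3, did not pass the filter, and no fold change was computed. At this depth no difference in *Cdkn2a* was detectable, and the starts of p16Ink4a and Arf could not be followed separately. Floors cover counting error only.

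**Figure D2:**
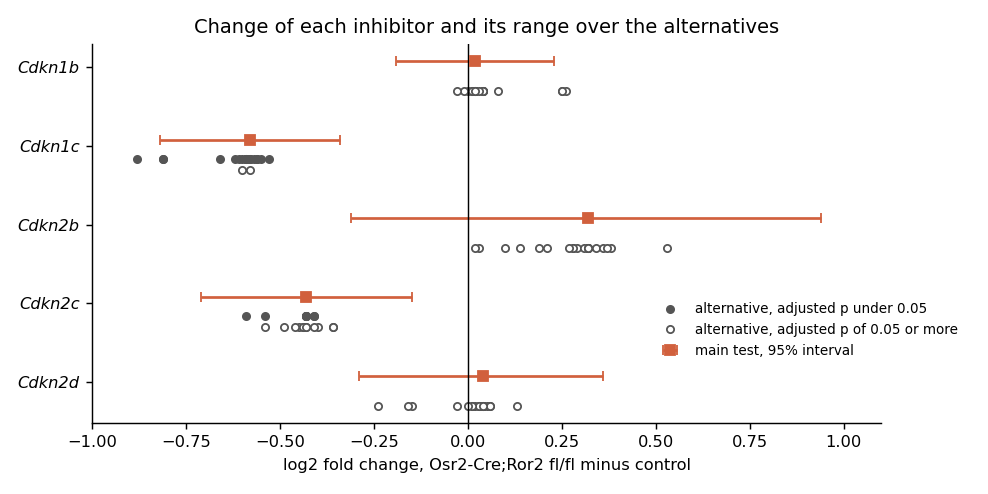
Log2 fold change (x axis, *Osr2-Cre;Ror2 fl/fl* minus control) of the 5 tested inhibitors. Squares with bars give the edgeR quasi-likelihood estimate and its 95% interval, and circles below them the alternatives, filled where the adjusted p was under 0.05. *Cdkn1c* lies between -0.88 and -0.53 throughout, *Cdkn2c* between -0.59 and -0.36 with mostly open circles, and *Cdkn1b* and *Cdkn2d* have circles on both sides of 0.

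To compare levels between genes, CPM was divided by the length of the union of exons in kb. On this scale *Cdkn1c* was highest in the controls at 74.4 ± 0.826, followed by *Cdkn1b* at 19.0 ± 0.673, *Cdkn2d* at 4.005 ± 0.164, *Cdkn2c* at 3.30 ± 0.129, *Cdkn2b* at 1.61 ± 0.240 CPM per kb and *Cdkn2a* at the floor (SD, n = 3 each). No neighbours in this order overlapped in the controls. The mutant order was the same, with *Cdkn1c* at 49.7 ± 4.97, *Cdkn1b* at 19.2 ± 1.29, *Cdkn2d* at 4.11 ± 0.523, *Cdkn2c* at 2.46 ± 0.203 and *Cdkn2b* at 1.999 ± 0.692 CPM per kb, but here *Cdkn2b* (1.37 to 2.74) overlapped *Cdkn2c* (2.26 to 2.67). *Cdkn1c* and *Cdkn1b* transcripts thus made up most of the level summed over the members in every library. *Cdkn1a*, the closest relative of the Kip members, is not part of this sum or of the Kip sum below. Not divided by length, it was at 330 ± 30.4 CPM in control and 402 ± 50.6 CPM in mutant libraries (SD, n = 3 each), with overlapping groups.

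Added over all 6 members, the level per length was 101.9, 102.6 and 102.5 CPM per kb in control libraries 1 to 3 and 76.8, 82.1 and 73.9 CPM per kb in mutant libraries 1 to 3. Every mutant sum was below every control sum (exact permutation p = 0.1). The Kip sum went from 93.4 ± 0.289 to 69.0 ± 3.804 CPM per kb, without overlap, whereas the Ink4 sum overlapped between the groups at 8.96 ± 0.207 and 8.60 ± 1.21 CPM per kb (exact permutation p = 0.7; SD, n = 3 each). *Cdkn1c* accounted for 73.0%, 73.4% and 71.8% of the sum in control libraries 1 to 3 and for 62.3%, 67.4% and 62.2% in mutant libraries 1 to 3. *Cdkn1b*, whose own level differed little, took 18.4%, 17.9% and 19.2% of the sum in the controls and 24.98%, 21.9% and 27.9% in the mutants. For the kinases that Ink4 proteins bind, the *Cdk4* and *Cdk6* sum was 46.3 ± 2.62 CPM per kb in control and 45.3 ± 2.63 CPM per kb in mutant libraries, and the Ink4 sum over it was 0.194 ± 0.0139 and 0.191 ± 0.0351, with overlapping groups (exact permutation p = 0.8 and p = 1).

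**Figure D3:**
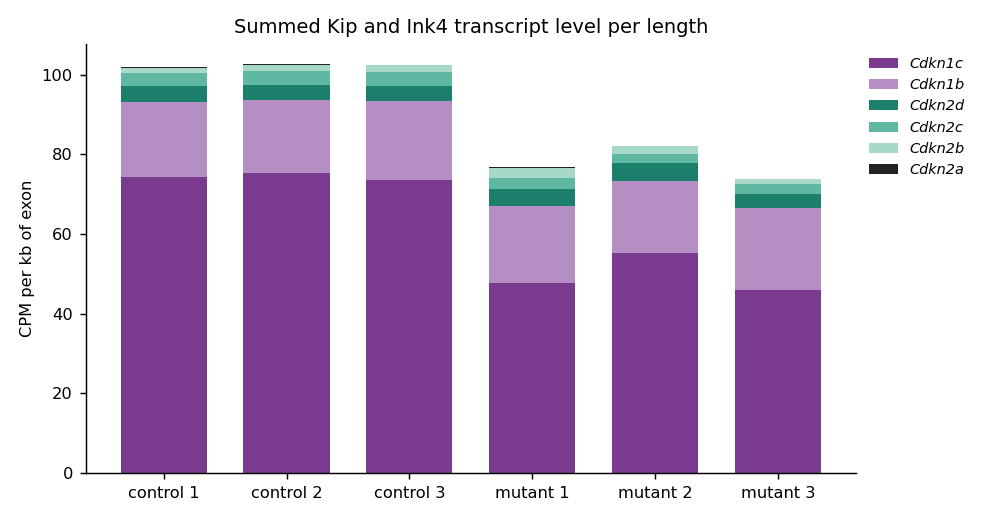
Level per length (y axis, CPM per kb of exon, from 0) of the 6 inhibitors, stacked for each of the 6 libraries on the x axis. The stacks reach 102 to 103 in the controls and 73.9 to 82.1 in the mutants, and most of the gap lies in the *Cdkn1c* segment at the base.

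The genes around the inhibitors were read from 10 lists of pathway genes, 136 in all, of which 130 could be tested. Across them 9 were higher and 18 lower, that is 20.8% called beside 20.2% of all genes tested. The median log2 fold change was -0.09 beside 0.01. By list, the share called was 22.2% for cyclins and kinases, 30.8% for retinoblastoma and E2F genes and 33.3% for proliferation markers. It was 16.7% for protein turnover, 21.2% for transcriptional and 0% for post-transcriptional regulators. For the imprinted domain it was 10%, for the Mdm2 and p53 arm 14.3% and for other CDK inhibitor proteins 16.7%. Beside *Cdkn2a* and *Cdkn2b*, where only 2 genes were tested, it was 50%.

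Of the cyclins and kinases that the inhibitors restrain, 18 of 19 were tested, 4 were lower and none higher (median -0.24; 0 higher at an unadjusted p under 0.05 in the edgeR test and 0 adjusted by DESeq2). The lower genes were *Ccna2*, the S-phase cyclin, *Ccne2*, a partner of CDK2, *Cdk1*, the mitotic kinase, and the D cyclin *Ccnd2*. *Ccna2* was at 17.4, 16.3 and 16.2 CPM in control libraries 1 to 3 and at 9.45, 7.89 and 11.0 CPM in mutant libraries 1 to 3 (log2 fold change -0.82, adjusted p = 0.0081, edgeR). *Ccnd2* was at 353, 420 and 380 CPM in the controls and at 245, 209 and 298 CPM in the mutants (-0.62, adjusted p = 0.027, edgeR). For both genes all mutant libraries were below all controls. *Ccne2* and *Cdk1* had log2 fold changes of -0.77 and -0.52 (adjusted p = 0.017 and 0.023, edgeR). The direct targets of the Ink4 proteins did not pass the test, with -0.02 for *Cdk4* (adjusted p = 0.89) and -0.30 for *Cdk6* (adjusted p = 0.14), nor did *Cdk2*, the main kinase restrained by Kip proteins, at 0.27 (adjusted p = 0.14, edgeR). For *Cdk2* every mutant library was above every control, a state that 22.6% of all genes tested shared. The count of lower genes was 1 without control library 2 or 3 and 2 with the GC offset. Without mutant library 3, 1 gene was higher (adjusted p under 0.05, edgeR). With the GC offset, 0 genes were called higher, but 2 were higher at an unadjusted p under 0.05 (edgeR). *Ccnd1* was at -0.40, *Ccnd3* at 0.05 and *Ccne1* at -0.18, with adjusted p of 0.12, 0.71 and 0.46 (edgeR).

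Of the 13 retinoblastoma and E2F genes, through which CDK activity reaches transcription, 1 was higher and 3 were lower (median -0.25). *Rb1*, the pocket protein that CDK4 and CDK6 phosphorylate, was at 166, 179 and 173 CPM in control libraries 1 to 3 and at 129, 78.6 and 122 CPM in mutant libraries 1 to 3 (log2 fold change -0.65, adjusted p = 0.037, edgeR). All mutant libraries were lower, library 2 the most. *Tfdp1*, the dimerization partner of E2F proteins, and *E2f3* were also lower (-0.37 and -0.36, adjusted p = 0.038 and 0.048), and *E2f4*, a mainly repressive E2F, was higher (0.38, adjusted p = 0.033, edgeR). With the GC offset 0 genes of this list were called (3 higher and 4 lower at an unadjusted p under 0.05), and none was called without control library 2 or 3.

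Among 18 proliferation markers, a list that shares *Ccna2* and *Ccnb1* with the cyclins, 6 were lower and none higher (median -0.33). The count of higher markers was also 0 at an unadjusted p under 0.05 in the edgeR test and 0 adjusted by DESeq2. At an unadjusted p under 0.05, 1 marker was higher with the GC offset and 1 without mutant library 1 (edgeR). *Mki67*, the gene of the Ki67 antigen, was at 64.0, 58.6 and 63.4 CPM in control libraries 1 to 3 and at 37.6, 40.3 and 46.9 CPM in mutant libraries 1 to 3. The groups did not overlap (log2 fold change -0.57, adjusted p = 0.011, edgeR). *Bub1*, a kinase of the spindle checkpoint, was lower by more (-1.03, adjusted p = 0.0054, edgeR). The count of lower markers was 2 without control library 3 and 10 without mutant library 3. The other 12 markers did not pass the test, among them *Pcna* at -0.02, and *Mcm7* at 0.26 with every mutant library above the controls (adjusted p = 0.91 and 0.16, edgeR).

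**Figure D4:**
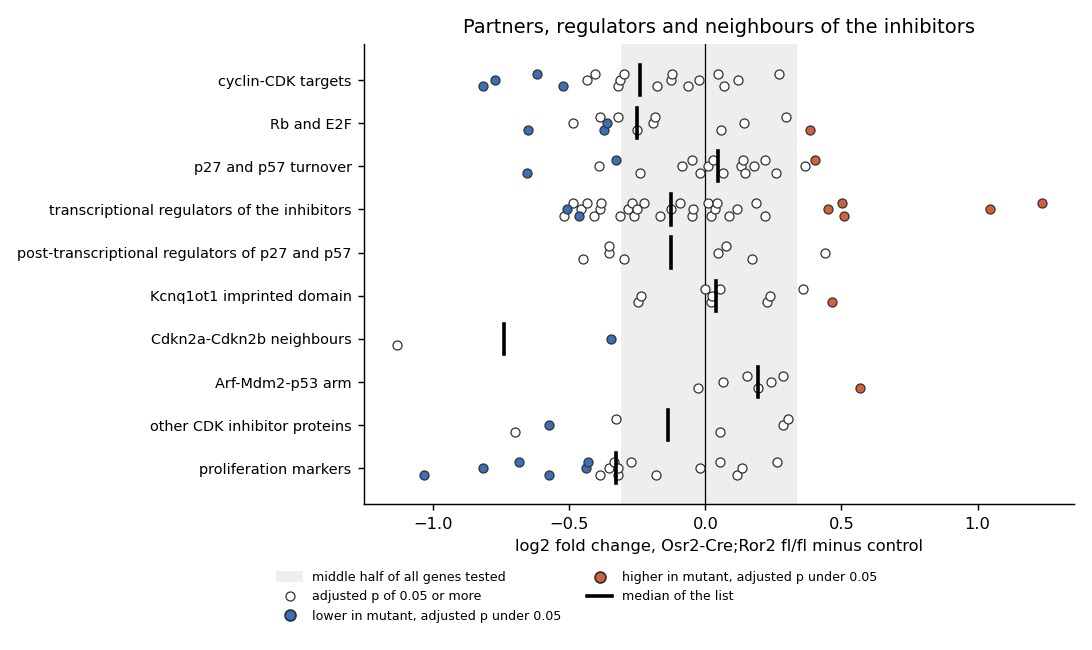
Log2 fold change (x axis, *Osr2-Cre;Ror2 fl/fl* minus control) of each tested gene in the 10 lists named on the y axis, with a black bar at the list median and a gray band over the middle 50% of all genes tested. Filled points passed the test. In the cyclin-CDK and proliferation lists every filled point, 4 and 6 of them, is on the lower side, and the post-transcriptional list has none.

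Of 18 genes tied to the turnover of p27 and p57 protein, 1 was higher and 2 were lower (median 0.05). Without control library 2 or 3 there were 0 calls in this list (2 lower, and 2 and 1 higher, at an unadjusted p under 0.05, edgeR), and with the GC offset 2 were higher and 0 lower. *Dtl*, the substrate receptor of a CUL4 ligase, and *Cul1*, the scaffold of the SCF ligases, were lower (log2 fold change -0.65 and -0.33, adjusted p = 0.015 and 0.028, edgeR), and *Rnf123*, a subunit of the KPC ligase that acts on p27 in G1, was higher (0.40, adjusted p = 0.032). *Skp2*, the F-box protein that selects phosphorylated p27, was at 6.94, 8.54 and 9.02 CPM in control libraries 1 to 3 and at 5.62, 6.17 and 6.90 CPM in mutant libraries 1 to 3. Its groups did not overlap, by a narrow margin, but it did not pass the test (-0.39, adjusted p = 0.095, edgeR). Its cofactor *Cks1b* was at 0.03 (adjusted p = 0.89, edgeR).

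Among 33 transcriptional regulators of the inhibitor genes, 5 were higher and 2 lower (median -0.13), and 5 and 10 at an unadjusted p under 0.05 (edgeR). The balance of these calls followed the test and the libraries, with 5 higher and 6 lower by DESeq2, 5 and 11 by limma voom, and 0 either way without control library 2 or 3. *Bmi1*, which encodes a subunit of the Polycomb complex PRC1, a repressor of *Cdkn2a*, was at 35.6, 39.5 and 40.1 CPM in control libraries 1 to 3 and at 29.1, 24.6 and 27.2 CPM in mutant libraries 1 to 3 (log2 fold change -0.51, adjusted p = 0.014, edgeR). *Cbx7*, of another PRC1 subunit, was at 2.69, 3.19 and 3.19 CPM in the controls and at 6.44, 10.2 and 4.76 CPM in the mutants (1.24, adjusted p = 0.019), and *Phc2* was higher too (0.45, adjusted p = 0.012, edgeR). The other PRC1 genes of the list, *Rnf2*, *Cbx8*, *Phc1* and *Ring1*, did not pass the test (-0.39, -0.05, 0.22 and 0.19, adjusted p = 0.055, 0.83, 0.17 and 0.28, edgeR). *Cdkn2a* itself was at the floor in both groups. *Gli1*, the Hedgehog effector, *Myc*, a repressor of *Cdkn2b* together with MIZ1, and *Zbtb17*, which encodes MIZ1, were the remaining higher genes (1.05, 0.50 and 0.51, adjusted p = 0.016, 0.018 and 0.032, edgeR). *Foxo1*, an activator of *Cdkn1b*, was lower (-0.46, adjusted p = 0.041), while *Foxo3* had -0.49 with an adjusted p of 0.072 (edgeR).

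None of the 8 post-transcriptional regulators of p27 and p57 passed the test at an adjusted p under 0.05, although 3 had an unadjusted p under 0.05. All mutant libraries were below all controls for 4 of the 8, a state that 22.1% of all genes tested shared. DESeq2 called 2 of the 8 lower and limma voom 3. Those with the smallest p-values were *Pum2*, a repressor of p27 translation, and the RNA-binding proteins *Elavl1* and *Hnrnpc* (log2 fold change -0.45, -0.35 and -0.35, adjusted p = 0.056, 0.061 and 0.088, edgeR).

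In the imprinted domain of *Cdkn1c*, 10 of 13 neighbours were tested, 1 was higher, none was lower (0 lower at an unadjusted p under 0.05, edgeR, and 0 by DESeq2), and the median was 0.04. Without mutant library 2, 2 were higher and 1 lower, whereas 0 were called without control library 1, 2 or 3 or mutant library 1, with the GC offset, with library size alone, with no filter on low counts or by limma-trend (edgeR for the others). The higher gene was *Tssc4* (log2 fold change 0.47, adjusted p = 0.046, edgeR), and *Osbpl5* and *Cd81* had 0.24 and 0.36 (adjusted p = 0.081 and 0.089). *Kcnq1ot1*, the long non-coding RNA that silences the domain on the paternal allele, was at 27.9, 26.7 and 26.8 CPM in control libraries 1 to 3. It was at 10.7, 55.3 and 16.6 CPM in mutant libraries 1 to 3. The controls were close together, and the mutants fell on either side of them, library 2 above and libraries 1 and 3 below (log2 fold change 0.02, SE 0.51, adjusted p = 0.98, edgeR). Mutant library 2, with the highest *Kcnq1ot1*, also had the highest *Cdkn1c* of the mutants, at 113 CPM, and a relation between them was not tested. *Phlda2*, another maternally expressed gene of the domain, was at 0.124 CPM or less in every library and was not tested. Counts do not separate the alleles.

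Of the genes beside *Cdkn2a* and *Cdkn2b*, *Mtap*, which acts in methionine salvage, was lower (log2 fold change -0.35, adjusted p = 0.043, edgeR). This call was lost, with 0 genes of the list called, with the GC offset, library size alone, other filters, limma-trend and without any library but mutant library 2. *Elavl2* had -1.13 at under 0.6 CPM (adjusted p = 0.068), and *Dmrta1* was too low to test. Downstream of Arf, 1 of 7 genes of the Mdm2 and p53 arm was higher. It was *Trp53*, at 34.8, 32.4 and 33.1 CPM in control libraries 1 to 3 and at 47.8, 52.3 and 48.6 CPM in mutant libraries 1 to 3, without overlap (0.57, adjusted p = 0.0054, edgeR). *Ubtf* had 0.24 (adjusted p = 0.11, edgeR). All mutant libraries were above all controls for 4 of the 7 genes, a state that 22.6% of all genes tested shared. The count of higher genes in this list was 3 with the GC offset and 3 by limma voom. It was 0 with the replicate number as a block and the GC offset. *Cdkn1a*, which encodes p21 and is a target of p53 and the closest relative of the Kip members, was at 364, 320 and 305 CPM in the controls and at 449, 348 and 409 CPM in the mutants, with overlapping groups (0.29, adjusted p = 0.15, edgeR). Of the 6 other CDK inhibitor proteins, *Cdkn1a* included, only *Cdk2ap1* passed the test (-0.57, adjusted p = 0.018; 0 were called without control library 1, 2 or 3), and *Hexim1* and *Cdkn3* had -0.33 and -0.70 (adjusted p = 0.073 and 0.084, edgeR).

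As a description, the genes whose log2 CPM followed each member most closely over the 6 libraries were found by Pearson's r among some 9616 genes with a mean of at least 10 CPM. For *Cdkn1c* they were *Gm11826*, *Gm10257* and *Ramac* (r = 0.998, 0.994 and 0.993), and for *Cdkn2c* they were *Dact1*, *Rhou* and *Rap1b* (r = 0.999, 0.997 and 0.996). For *Cdkn1b* they were *Plekhb2*, *Zbtb24* and *Rnf216* (r = 0.972, 0.959 and 0.958), for *Cdkn2d* *Bcap29*, *Kirrel3* and *Cndp2* (r = 0.984, 0.981 and 0.976), and for *Cdkn2b* *Vldlr*, *C1qa* and *Borcs6* (r = 0.987, 0.986 and 0.983). The libraries form only 2 groups, so for *Cdkn1c* and *Cdkn2c* these values mostly restate the difference between them, and the lists of the members shared no gene.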

How the data were processed

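RNA-seq was performed on dental pulp, 3 libraries of *Osr2-Cre;Ror2 fl/fl* mutants and 3 of controls, grouped by the genotype in their labels. The title of control library 1 carries the letters WW, the titles of the other controls carry OW, and those of the mutants carry OR. These codes are not explained in the sources used here, and an effect of them was not tested. The authors deposited estimated counts per gene, not normalized (48.7% of the values were whole). The sources differ on how they were made: the submitters' processing notes name STAR 2.6.1d and Partek, and the paper's methods name TopHat with counting over exons of mm10. The annotation, the use of strand and the treatment of reads that fit several genes are not given in the sources used here. The authors also deposited a normalized signal per gene, which equals the estimated count plus 1 times a factor per library and is not divided by length. A further 6 columns of samples outside the labels were not used.

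Estimated counts were rounded (the design had assumed whole counts), filtered with filterByExpr, scaled by TMM and tested with edgeR 4.0.16 (quasi-likelihood, no block, R 4.3.3) over all genes, with Benjamini-Hochberg adjustment. The procedure was tested on simulated data with the same spread for every gene and independent libraries. That setting does not show how the test performs on replicates as uneven as these. For permutation tests of genes, CPM was log2-transformed after a prior count of 2; sums and ratios were log2-transformed as they were. Alternatives used limma 3.58.1, DESeq2 1.42.0, other scalings and filters, GC and length offsets, and left out each library in turn. Levels per length used the union of M21 exons. Named genes were the members, *Ror2*, the 3 genes of smallest p-value in each pathway list, the direct partners of the members, the genes most alike each member and those sharing its sequence. *E2f3*, *Myc*, *Cbx7*, *Zbtb17*, *Foxo1*, *Pcna*, *Mcm7* and the PRC1 genes without a call were named after their values were seen, to complete the account of their lists. The members and lists were chosen with earlier results of these data known. The labels do not say that the samples are separate mice, so p-values measure the spread between samples. Replicates varied beyond counting error.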

Additional observations from a re-analysis of the deposited data

How the results depend on the processing

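Depth limits *Cdkn2a*, whose counts did not pass the filter, and 3 samples per group limit the rest. Of 22 alternatives, *Cdkn1c* kept its direction in all and its call in 20. It missed the threshold without control library 2 or 3, with log2 fold changes from -0.66 to -0.53 over the 6 fits that left out a library. *Cdkn2c* kept its direction in all 21 alternatives and its call in 9. It missed the threshold with library size alone (-0.45), with no filter on low counts (-0.44), with limma-trend on the normalized table at pseudocounts of 1 (-0.36) and 0.1 (-0.40), and without any of the libraries in turn (-0.49 to -0.36). *Cdkn2d*, never called, turned to -0.15 with the GC offset, to -0.24 with GC and length offsets, to -0.16 with the replicate block and GC offset, and to -0.03 without mutant library 2 (-0.03 to 0.13 over the libraries left out). *Cdkn1b*, never called, rose to 0.25 with the GC offset and to 0.26 with GC and length offsets. It turned to -0.01 without control library 2 and to -0.03 without mutant library 3 (-0.03 to 0.08 over the libraries left out). *Cdkn2b* ran from 0.02 to 0.53. The cause of these shifts was not tested.

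The groups share sample index numbers, and the paper's methods describe the samples as 3 pairs without saying how they were paired. Deviations of same-numbered libraries from their group means had correlations of -0.10, -0.08 and -0.00. With 3 libraries per group, such values can neither show nor exclude a pairing. Neither the paper's methods nor the sample titles say whether controls and mutants were prepared and sequenced together. A difference in processing between the groups, if there was any, could not be told apart from genotype. With the replicate number as a block, 1012 genes were higher and 1001 lower among all genes, and 3 and 5 among the pathway genes; *Cdkn1c* was at -0.59 (adjusted p = 0.035, edgeR) and *Cdkn2c* missed the threshold at -0.43 (adjusted p = 0.12, edgeR). The block with the GC offset gave 774 and 551 genes, 1 and 2 pathway genes, and -0.54 for *Cdkn2c*, not called.

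Against 2003 genes higher and 1903 lower, voom with quality weights called 3167 and 3174, and 15 and 37 pathway genes against 9 and 18. The GC offset lowered the count of lower genes to 1191, and to 10 pathway genes, or 7 with the length offset. DESeq2 called 29 pathway genes lower, and library size alone 5 higher. Leaving out a library gave 458 to 2520 higher and 414 to 2481 lower genes, with 1 to 11 and 2 to 30 pathway genes; the fewest came without control library 3 (458 and 414) or 2 (478 and 432), and higher genes also fell to 1291 without control library 1 and 1275 without mutant library 1 (1129 lower). Per length of the longest transcript, controls were at 79.8 for *Cdkn1c*, 0.054 for *Cdkn2a*, 3.59 for *Cdkn2c* and 4.43 CPM per kb for *Cdkn2d*, and *Cdkn2c* was at 2.67 in mutants. Library sizes without *Amelx*, *Ambn* and *Enam*, added after the data were seen, changed no call of a member.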
